A study of Mus musculus with 43 samples.

Results

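The cells described here are single cells of irradiated mouse intestinal organoids that carried at least 3 unique molecular identifiers (UMIs, each standing for 1 captured RNA molecule) of Clu, the gene of the secreted chaperone clusterin. They were set against cells of the same library with 0 Clu UMIs, called Clu-zero, after both classes were matched for total UMIs and Clu itself was left out. Of 12323 organoid cells with at least 500 UMIs and at most 20% mitochondrial UMIs, 1803 were Clu-high by this rule, 8437 were Clu-zero and 2083 had 1 to 2 Clu UMIs. The series held 15587 such cells in all. The cells were chosen by their Clu UMIs, so Clu counts and shares are given as descriptions and support nothing. Clu-high is a range of a count and not a cell type: at 0, 6, 15 and 24 h, 14, 70, 113 and 88 of its cells had exactly 3 Clu UMIs, and 24, 161, 202 and 223 cells with exactly 2 lay just outside it.

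The organoids were grown from wild-type C57BL/6 intestine, were given 4 Gy of ionising radiation on day 4 and were collected on day 8. They received vehicle for 24 h (the 0 h library) or 1 ng/mL TGFB1 for 6, 15 or 24 h, with 1 library per time. Further single cells came from Mki67tm1.1Cle/J mice, sorted as Ki67-RFP+ DAPI- from crypts of the proximal small intestine, without irradiation (1 library) or 56 h after 12 Gy to the whole body (2 libraries). This sort selects cells that carry the proliferation reporter, so it does not sample all crypt cells. Bulk RNA came from wild-type C57BL/6 organoids in 3 conditions, non-irradiated at day 7 (D7), irradiated with 4 Gy on day 4 and taken at D7, and irradiated in the same way and taken at day 11 (D11), each given vehicle or 2 ng/mL TGFB1 for 24 h from day 6, with 3 libraries per group.

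Clusterin is a secreted glycoprotein that binds misfolded proteins, and in the intestine Clu marks rare cells that appear in crypts after injury to the stem cells. Such cells are known for genes of the fetal gut epithelium, among them Anxa1 and Ly6a, and for activity of YAP, a transcription co-factor that binds DNA through TEAD proteins. TGFB1 is a cytokine that signals through SMAD proteins and, in epithelia, is known for slowing proliferation and for raising matrix, integrin and cytoskeletal genes.

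After these cell filters 2932, 4283, 2890 and 2218 organoid cells remained at 0, 6, 15 and 24 h, with a median of 8201.5, 6709, 7805 and 10441 UMIs per cell. Scrublet marked 0.496 to 1.56% of the cells as doublets, which were kept in the main comparison and left out in an alternative. Only 1 barcode was shared between organoid libraries (15 and 24 h), and 1 between the 24 h library and a crypt library. Markers of immune and of mesenchymal cells were close to absent: in either class and any organoid library the 12 genes of each list summed to at most 5.08 and 18.4 CPM (UMI counts scaled to the sum of the class), and 0 genes of either list passed the filter on low counts. With 1 library per time, differences between times have no replicate check, and each interval printed for a share or a CPM covers counting error only.

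Clu-high cells made up 1.13% of the cells at 0 h (exact 95% interval 0.776 to 1.58%), 5.11% at 6 h (4.47 to 5.82%), 22.8% at 15 h (21.3 to 24.4%) and 40.2% at 24 h (38.1 to 42.2%), so the intervals of the 4 libraries did not overlap. Within the class the median number of Clu UMIs was 4, 5, 7 and 14, and the highest cell held 17, 108, 178 and 379. Clu-high cells held 51.9% of their library's Clu UMIs at 0 h, 66.0% at 6 h, 89.8% at 15 h and 96.2% at 24 h. They were deeper than Clu-zero cells, with a median of 11462, 8575, 9822 and 14830 UMIs against 8108, 6447, 6968 and 7340. When every cell was thinned to 2000 UMIs, the share with any Clu UMI was 1.98, 8.37, 26.1 and 41.9%, and the share with at least 3 was 0.171, 1.17, 6.23 and 17.3%, the same order over time as without thinning.

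The Clu-high cells were concentrated among the cells with few enterocyte transcripts. A list of 20 enterocyte genes, led by Fabp1 and Apoa4, took a median of 0.202, 0.219, 0.223 and 0.242% of the UMIs of Clu-high cells, against 0.963, 1.68, 4.33 and 4.60% in Clu-zero cells of matched depth. Among cells with under 0.5% enterocyte UMIs, 2.50% were Clu-high at 0 h, 11.0% at 6 h, 52.3% at 15 h and 85.9% at 24 h. Among cells with 2% or more, the shares were 0.0705, 0.456, 1.83 and 7.68%. Cells with under 0.5% were a similar part of each library (39.6, 41.8, 37.9 and 37.0%) and supplied 87.9, 90.0, 86.8 and 79.1% of all Clu-high cells.

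**Figure D1:**
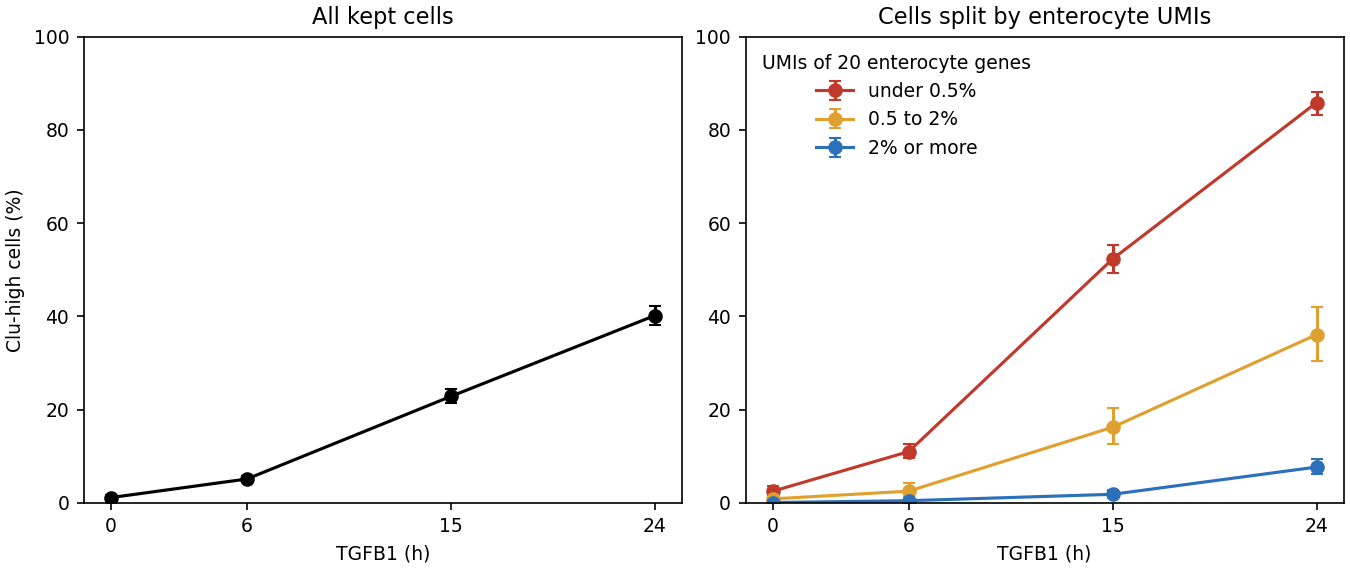
Share of Clu-high cells (%, vertical axis) against hours of TGFB1 (horizontal axis) in all kept cells (left) and in cells split by the percentage of their UMIs that fell on 20 enterocyte genes (right); points are single libraries and bars are exact 95% intervals from counting. In the right panel the cells with under 0.5% enterocyte UMIs reach 85.9% at 24 h, and those with 2% or more reach 7.68%. The groups of cells were not matched for depth.

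The same contrast held between cells rich in Top2a and cells rich in Apoa4, while cells rich in Lyz1 or in Chgb lay between them at 15 and 24 h. Of cells with at least 5 UMIs of Lyz1, a Paneth cell gene, 1.82, 1.92, 28.4 and 56.4% were Clu-high (55, 52, 81 and 250 cells). For Chgb, an enteroendocrine gene, the shares were 0, 0, 30 and 31.6% (7, 6, 10 and 19 cells). Among cells with at least 5 UMIs of Top2a, a topoisomerase of dividing cells, 1.70, 13.1, 61.1 and 89.9% were Clu-high, and among cells with at least 5 UMIs of Apoa4, an apolipoprotein of absorptive enterocytes, 0.0887, 0.833, 3.36 and 12.6%. After thinning to 2000 UMIs, any Clu UMI was found in 3.40, 13.5, 48.4 and 71.9% of the Top2a cells and in 0.710, 2.39, 8.61 and 21.4% of the Apoa4 cells. RNA released from broken cells can add stray UMIs to any cell, and shares at or below those of the Apoa4 cells cannot be told apart from it. In crypts, 0 of 1846 non-irradiated Ki67-RFP+ cells were Clu-high, which allows a share of up to 0.163% (3 counts of the total), while 61 of 719 (8.48%) and 71 of 699 cells (10.2%) were Clu-high in the 2 irradiated libraries.

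Because Clu-high cells are poor in enterocyte transcripts, the comparison of the classes in organoids was made in 2 forms. In the first, Clu-high cells were drawn 1 to 1 with Clu-zero cells of the same library and similar total UMIs. This gave 33, 218, 619 and 489 pairs at 0, 6, 15 and 24 h, from 33, 219, 660 and 891 Clu-high cells. At 24 h the drawn Clu-high cells had a median of 9568 UMIs other than Clu, against 14799 in the whole class. In the second, called enterocyte-matched and chosen after seeing the data, the pairs also had a similar share of UMIs on the 20 enterocyte genes, which left 33, 216, 280 and 175 pairs. The Clu-high cells kept at 24 h had a median of 1.68% enterocyte UMIs, against 0.242% in the first form. At 15 h the medians were 0.279 and 0.223%. The second form thus rests on fewer cells and, at 24 h, on Clu-high cells richer in enterocyte transcripts than those of the first. UMIs were summed per class and library, and the 8 sums were tested with edgeR's quasi-likelihood test with the library as a block and Benjamini-Hochberg adjustment. The libraries are replicates of the class difference taken at different times. The test asks whether that difference is larger than its spread over them, which edgeR estimates in part from other genes.

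TEAD proteins bind DNA for YAP, and AP-1 is the pair of Jun and Fos proteins that also binds near many genes of injured epithelium, so the bases before the start sites of the genes with the largest differences were searched for the letters of both. Of 26 genes (those named by rule as higher in either form of the comparison, with Clu and Ccn1), 19 had an entry in the RefSeq promoter table (GRCm38.p6), and the 250 bases before the start site were searched on both strands for GGAATG, the letters of a TEAD site, and for TGANTCA, the letters of an AP-1 site. The TEAD letters occurred in 6 of these 19 genes and the AP-1 letters in 3. The windows printed here were picked because they carry a match, which stands in capitals in the direction of transcription, and because the values of these genes return in the results. Anxa1 (chr19:20390672-20390921, minus strand) carries the TEAD letters, read on the other strand, starting 236 bases before the start site. Ccn1 (chr3:145649986-145650235, minus strand), a panel gene and known YAP target, has them at 103 bases, and Flna (chrX:74246535-74246784, minus strand) at 146 bases. Plaur (chr7:24462233-24462482, plus strand) has the AP-1 letters at 69 bases.
Anxa1: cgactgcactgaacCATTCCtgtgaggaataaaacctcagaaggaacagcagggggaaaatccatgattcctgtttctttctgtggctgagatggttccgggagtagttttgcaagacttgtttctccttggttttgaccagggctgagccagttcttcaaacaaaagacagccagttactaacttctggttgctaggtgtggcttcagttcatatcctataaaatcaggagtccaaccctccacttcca
Ccn1: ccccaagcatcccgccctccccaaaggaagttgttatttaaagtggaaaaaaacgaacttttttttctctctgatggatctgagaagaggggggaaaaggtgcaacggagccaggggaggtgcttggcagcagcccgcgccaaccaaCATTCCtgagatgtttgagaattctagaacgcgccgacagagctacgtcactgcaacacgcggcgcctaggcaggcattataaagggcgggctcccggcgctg
Flna: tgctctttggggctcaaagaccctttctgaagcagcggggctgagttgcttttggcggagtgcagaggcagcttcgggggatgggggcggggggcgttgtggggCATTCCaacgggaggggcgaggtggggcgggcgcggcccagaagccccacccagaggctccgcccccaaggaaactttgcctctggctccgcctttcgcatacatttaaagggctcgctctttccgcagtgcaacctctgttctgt
Plaur: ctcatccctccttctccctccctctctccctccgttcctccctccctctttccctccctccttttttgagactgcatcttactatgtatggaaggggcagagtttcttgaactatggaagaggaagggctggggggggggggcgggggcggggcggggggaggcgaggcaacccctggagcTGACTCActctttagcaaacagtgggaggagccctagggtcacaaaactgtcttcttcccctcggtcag
Over all 27025 genes of the table, 14.4% held the TEAD letters and 7.82% the AP-1 letters in such a window. Among genes tested in the cells the shares were 12.7 and 5.26%, and among the 114 genes with an entry that were at least 2-fold higher in enterocyte-matched Clu-high cells they were 19.3 and 13.2%. With depth matched alone they were 15.4 and 4.73% for genes at least 2-fold higher and 16.2 and 9.16% for genes at least 2-fold lower. In that form neither the TEAD nor the AP-1 letters were more frequent in the higher genes than in the lower ones. These are matches of letters and not bound sites.

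With depth matched alone, Clu-high and Clu-zero cells differed over much of the transcriptome: 5904 of 11158 genes tested (52.9%) passed an adjusted p of 0.05, 3091 (27.7%) higher and 2813 (25.2%) lower in Clu-high cells. By 2-fold or more, 1335 genes (12% of those tested) were higher and 1213 genes (10.9%) were lower. Between enterocyte-matched classes 958 of 10319 genes (9.28%) passed, 479 in each direction (4.64% each), and 145 genes were higher by 2-fold or more (1.41%) while 19 were lower by that much (0.184%). Without the cells that had at least 5 Apoa4 UMIs, 1961 of 9616 genes (20.4%) passed. Of the 3091 genes higher in the first form, 343 (11.1%) were also higher in the second, which is 71.6% of the 479. On the lower side 310 genes were shared, 11.0% of the 2813 and 64.7% of the 479. Without TMM scaling the median of all genes moved from 0.06 to 0.30 (log2), and 70.1% instead of 52.4% of the depth-matched calls were higher. Leaving out the 15 h library reduced the 5904 calls to 3260, and leaving out the 24 h library to 3825.

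Anxa1, an annexin of the repairing and fetal gut epithelium, stood at 125, 33.8, 100 and 146 CPM in Clu-high cells at 0, 6, 15 and 24 h and at 0, 0, 2.29 and 5.47 CPM in depth-matched Clu-zero cells. The classes did not overlap in any pair of libraries, and the log2 difference was 4.93 ± 0.27 (SE, n = 4 libraries, edgeR adjusted p = 7.09e-07), and 4.33 ± 0.23 between enterocyte-matched classes (adjusted p = 1.56e-10). Ly6d, a surface protein of the Ly6 family, had 84.8, 32.0, 31.5 and 43.5 CPM against 0, 1.85, 1.22 and 1.24, a log2 difference of 4.59 ± 0.26 that was 3.76 ± 0.31 when enterocyte-matched. Anxa8, a further annexin, had 4.99, 16.9, 43.1 and 38.3 CPM against 0, 0.464, 1.52 and 2.29, with log2 differences of 4.21 and 4.25 in the 2 forms. Msln, which encodes the surface protein mesothelin, had 72.3, 28.3, 26.4 and 16.4 CPM against 0, 1.85, 1.66 and 0.820, and it had the largest difference of the named genes when enterocyte-matched, 4.43 ± 0.32. For Ly6d, 22 of the 34 UMIs in Clu-high cells of the 0 h library came from 1 cell, so the values at that time rest on few cells.

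The 15 genes named as higher have the same sign in all 4 libraries by the naming rule, and all 15 also passed when enterocyte-matched. Thbs1, the matrix protein thrombospondin 1 and a target of both YAP and TGFB, was the most abundant of them, with 219, 177, 292 and 511 CPM against 7.62, 16.2, 21.2 and 32.8 in Clu-zero cells. Its log2 difference was 3.59 ± 0.15 and, enterocyte-matched, 1.87 ± 0.11. Tnfrsf11b, the decoy receptor osteoprotegerin, gave 3.93 and 2.36, Cavin1, a coat protein of caveolae, 3.17 and 2.36, and Flna, the actin crosslinker filamin A, 3.10 and 2.03. The members whose difference was smallest after enterocyte matching were Fstl1, a secreted follistatin-like protein, which went from 3.32 to 0.59, and Mia, from 3.11 to 0.60. Tead2, a TEAD factor that carries YAP to DNA, went from 3.24 to 1.11. The others were Vill, Arl4c, Sh3pxd2b and Far1, with log2 differences of 3.12 to 3.88 and, enterocyte-matched, 1.30 to 2.37.

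The 15 genes named as lower were mostly products of absorptive enterocytes, and 4 of them also passed when enterocyte-matched. Fabp1, which carries fatty acids in enterocytes, had 329, 608, 660 and 1296 CPM in Clu-high cells against 7282, 9178, 15004 and 11027 in Clu-zero cells, a log2 difference of -4.23 ± 0.25. Between enterocyte-matched classes, for which Fabp1 was one of the genes used, it was -0.64 ± 0.22 (edgeR adjusted p = 0.227). Reg3a, an antimicrobial lectin, had a log2 difference of -4.20 and, enterocyte-matched, of -0.48 (edgeR adjusted p = 0.14). Leap2, a peptide of liver and gut, had -3.99 and then -0.26, and Sis, the sugar-splitting enzyme sucrase-isomaltase, -3.70 and then -0.24. Of the 15, only Ugt2b5 (-0.59), Ces1f (-0.71), Arg2 (-0.76) and Rdh7 (-0.65) still passed after enterocyte matching.

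**Figure D2:**
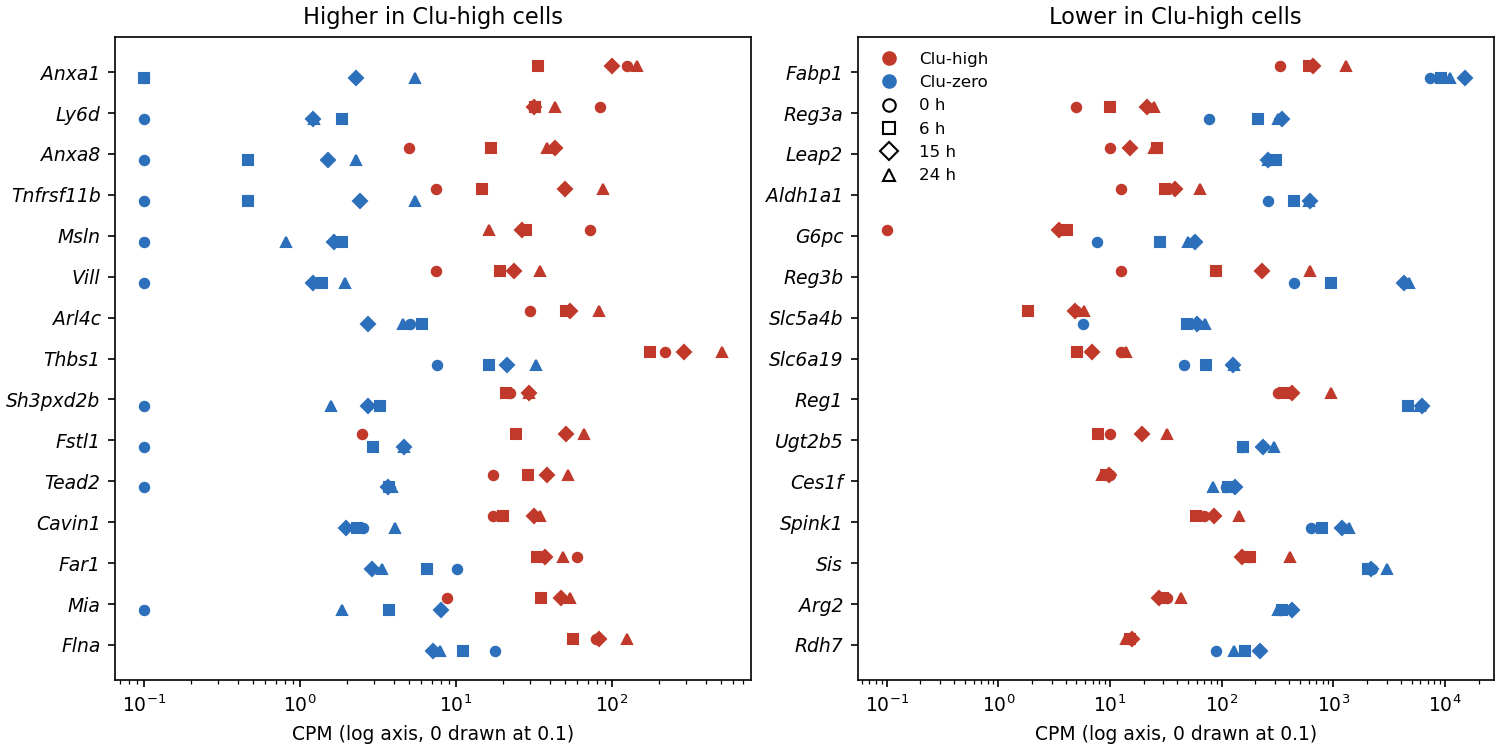
CPM on a log axis in depth-matched Clu-high cells (red) and Clu-zero cells (blue) for the 15 genes named as higher (left) and as lower (right); each symbol is 1 library, its shape gives the hours of TGFB1, and 0 is drawn at 0.1. For Anxa1 the red symbols lie between 33.8 and 146 CPM and the blue ones at 5.47 CPM or below.

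Gene lists set these differences in order. They were drawn up with earlier results of these data known, and some share genes (Anxa1 and Ly6d stand in more than one). A list's count is read beside the share of all genes called in the same form. With depth matched this share was 27.7% higher and 25.2% lower, and when enterocyte-matched it was 4.64% in each direction. Of 18 tested genes of the fetal-like and regenerative list, 16 were higher and 1 lower, with a median log2 difference of 1.89, and 12 were higher and 0 lower when enterocyte-matched (median 1.60, against 0.06 and -0.0032 for all genes in the 2 forms). S100a6, a calcium-binding protein of that list, had 1865, 1047, 1843 and 2578 CPM against 249, 344, 514 and 419, with a log2 difference of 1.98 ± 0.20 that missed the threshold when enterocyte-matched (1.90 ± 0.46, edgeR adjusted p = 0.145). Il1rn, the interleukin 1 receptor antagonist, gave 2.95 and then 2.81, and Cd44, a receptor for hyaluronan, 2.64 and then 1.15. The exception was Areg, an EGF receptor ligand, which was lower by depth matching (-0.63) and higher after enterocyte matching (0.67). Ly6a was under the filter on low counts, with 87.2, 2.44, 8.19 and 7.26 CPM against 0, 0, 0.305 and 0.177, and 19 of its 35 UMIs at 0 h were in 1 cell.

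Among YAP targets, 9 of 13 tested were higher and 0 lower, and 7 of 12 were higher when enterocyte-matched. Ccn1, a matrix protein, had 307, 538, 728 and 870 CPM against 73.7, 117, 135 and 127, a log2 difference of 2.17 ± 0.14 and then 1.02 ± 0.08. Ajuba, an adaptor at cell junctions that restrains the kinases upstream of YAP, gave 2.25 and then 1.60, and Ptpn14, a phosphatase that binds YAP, 2.95 and then 0.93 (edgeR adjusted p = 0.176). Genes of basement membrane and integrins had 11 of 15 higher and 2 lower, and 10 higher and 0 lower when enterocyte-matched: Lama3, a laminin chain, gave 2.03 and then 1.84, and Itgb6, the integrin chain that activates latent TGFB, 2.32 and then 1.36. Actin and contractility genes had 10 of 17 higher and 1 lower, then 12 higher and 0 lower. Of 10 tested plasminogen and protease genes, 6 were higher in each form, among them Plaur, the urokinase receptor (2.00 and then 2.03), Serpinb5, the serpin maspin (2.67 and then 2.60), and Adam8, a surface protease (3.54 and then 3.84).

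Direct TGFB response genes divided. Of 14 tested, 7 were higher and 3 lower with depth matched, and 3 were higher and 0 lower when enterocyte-matched. Pmepa1, an inhibitor of TGFB signalling induced by it, had 57.3, 354, 459 and 542 CPM in Clu-high cells and 15.2, 131, 118 and 117 in Clu-zero cells, so it was above the vehicle value in both classes at every TGFB1 time, with a log2 difference of 1.64 ± 0.15 between them. Smad7, an inhibitor of the same pathway, had 9.97, 29.7, 37.9 and 43.4 CPM against 15.2, 25.5, 40.5 and 36.2, a log2 difference of -0.15 ± 0.14 (edgeR adjusted p = 0.38; 0.06 when enterocyte-matched). Cdkn2b, a cell cycle inhibitor raised by TGFB, was lower with depth matched (-2.25 ± 0.19) and gave -0.10 ± 0.15 when enterocyte-matched. Tgfbr1, a TGFB receptor, gave 0.93 and then -0.03.

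Stem cell and proliferation genes were higher mainly in the form without enterocyte matching. Of 20 crypt stem genes 19 were higher, of 20 S phase genes 19, and of 20 mitosis genes all 20, with medians of 1.91, 1.82 and 1.41; when enterocyte-matched 6, 2 and 0 were higher, 1 mitosis gene was lower, and the medians were 0.23, 0.25 and -0.15. Lgr5, the receptor that marks crypt base stem cells, had 73.7, 76.4, 68.4 and 84.1 CPM against 27.9, 10.4, 8.72 and 8.03, a log2 difference of 2.72 ± 0.21 and then 0.81 ± 0.15 (edgeR adjusted p = 0.00116). Olfm4, a further stem cell marker, gave 2.17 and then 0.19 (edgeR adjusted p = 0.806), and Mki67, a proliferation marker, 1.33 and then -0.27 (edgeR adjusted p = 0.114). Ccnb2, a mitotic cyclin, passed in opposite directions, 1.05 and then -0.57, and Cdc6, which loads replication helicases, passed as higher in both, 2.38 and then 0.89. The enterocyte content of the cells moved with these lists and with the Clu classes in all 4 libraries.

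**Figure D3:**
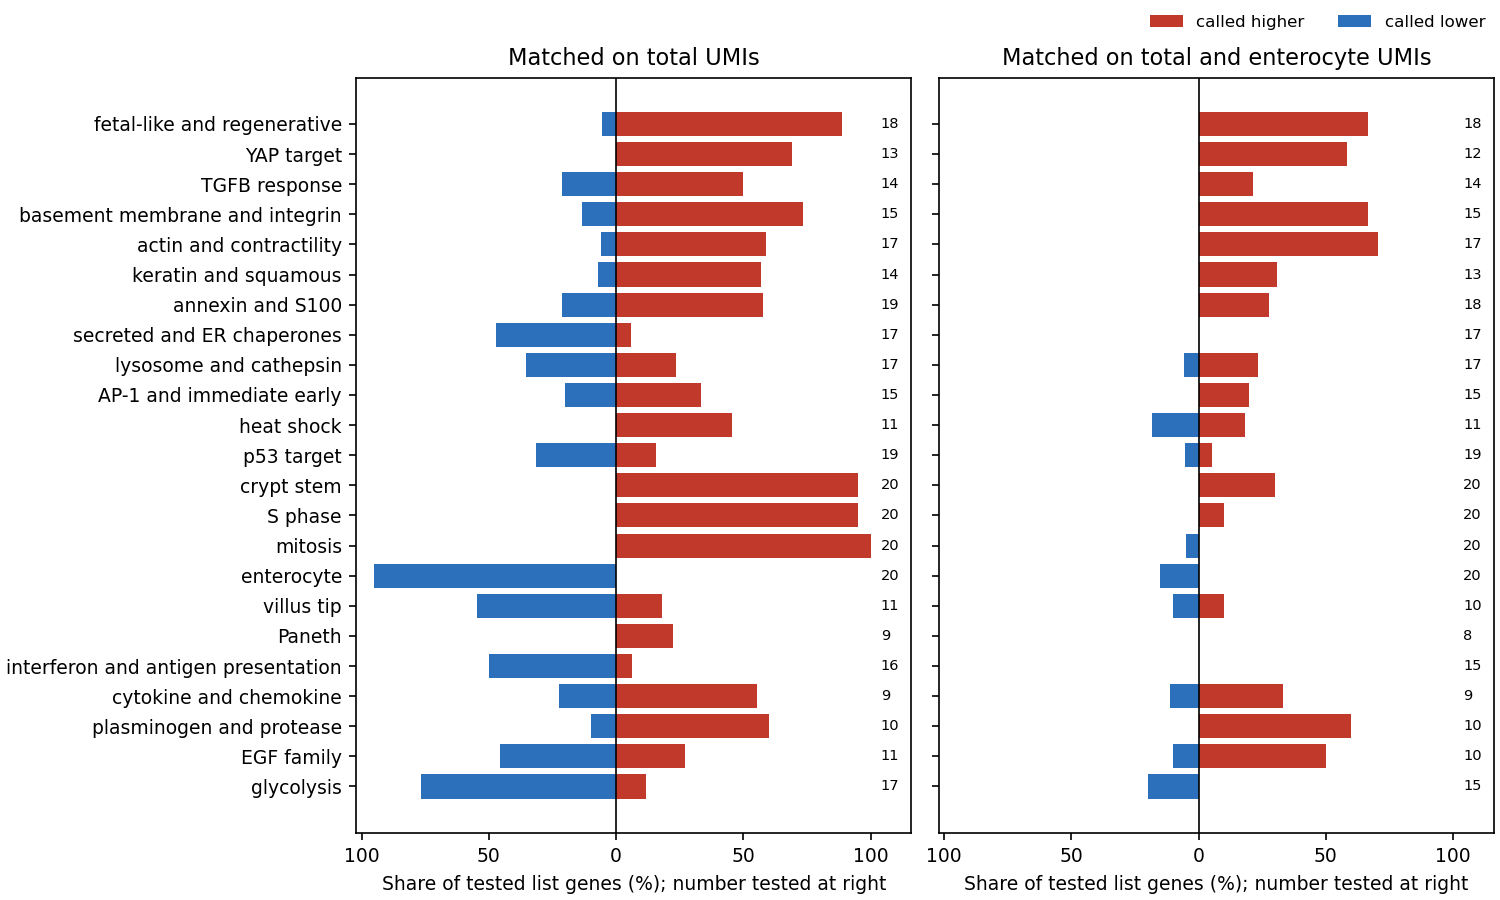
Percentage of the tested genes of each list that were called higher (red, to the right) or lower (blue, to the left) in Clu-high cells, with depth matched (left) and with depth and enterocyte UMIs matched (right); the numbers tested stand at the right edge of each panel. The fetal-like bar changes from 16 of 18 to 12 of 18 genes higher and the mitosis bar from 20 of 20 to 0 of 20.

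The remaining lists were mixed. Of 14 keratin and squamous genes 8 were higher and 1 lower, then 4 of 13 higher: Krt18, a keratin of simple epithelia, gave 1.38 and then 0.84, and Krt7 1.49 and then 1.16 (edgeR adjusted p = 0.127), while Krt20, a villus keratin, gave -1.36 and then 1.02 (0.274). Interferon and antigen presentation genes had 1 of 16 higher and 8 lower, glycolysis genes 2 of 17 higher and 13 lower, and endoplasmic reticulum chaperones 1 of 17 higher and 8 lower; when enterocyte-matched the lower calls were 0, 3 and 0. p53 targets had 3 of 19 higher and 6 lower, then 1 in each direction, with Cdkn1a, the cell cycle inhibitor p21, at -0.65 and then 0.31 (edgeR adjusted p = 0.0584 in the second form). Cytokine genes had 5 of 9 higher and 2 lower, then 3 higher and 1 lower: Csf1, a growth factor of macrophages, gave 2.62 and then 1.80, and Tnf 2.61 and then 0.94. EGF family genes had 3 of 11 higher and 5 lower, then 5 of 10 higher and 1 lower, with Egfr, the receptor, at 1.97 and then 1.52 and Btc, a ligand, at 1.47 and then 1.20. Heat shock genes had 5 of 11 higher and 0 lower, then 2 in each direction, where Hspa1a and Hspa1b, which are near-identical copies whose reads can be split between them, were the higher pair. Paneth cell genes had 2 of 9 higher and Lyz1, a Paneth lysozyme, gave 0.07 ± 0.15. Retinoid genes had 6 of 7 lower and 1 higher, the exception being Aldh1a3, a retinaldehyde dehydrogenase, at 2.11 and then 1.89.

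Within the organoids the genes did not follow the number of Clu UMIs in the same way. Cells of equal depth were taken at 15 h (205 per step) and 24 h (243 per step) with 0, 1 to 2, 3 to 9 and 10 or more Clu UMIs. Anxa1 stood at 1.54, 3.10, 9.22 and 262 CPM at 15 h and at 4.91, 3.74, 17.8 and 294 CPM at 24 h, so most of its signal lay in the last step. Ccn1 was spread more evenly, at 130, 313, 618 and 748 CPM at 15 h and at 124, 187, 550 and 1018 CPM at 24 h. Lgr5 had 5.91, 25.4, 55.3 and 60.8 CPM at 15 h, and Mki67 36.6, 81.5, 163 and 128 CPM. At 24 h Lgr5 had 4.58, 14.8, 57.8 and 86.9 CPM and Mki67 16.3, 24.8, 84.6 and 106 CPM, so the last step was above the one before it for both genes at 24 h and for Lgr5 alone at 15 h. Fabp1 had 16317, 8298, 1065 and 400 CPM at 15 h and 13027, 11152, 4517 and 263 CPM at 24 h. These steps are summed UMIs of 1 library each and carry no test.

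**Figure D4:**
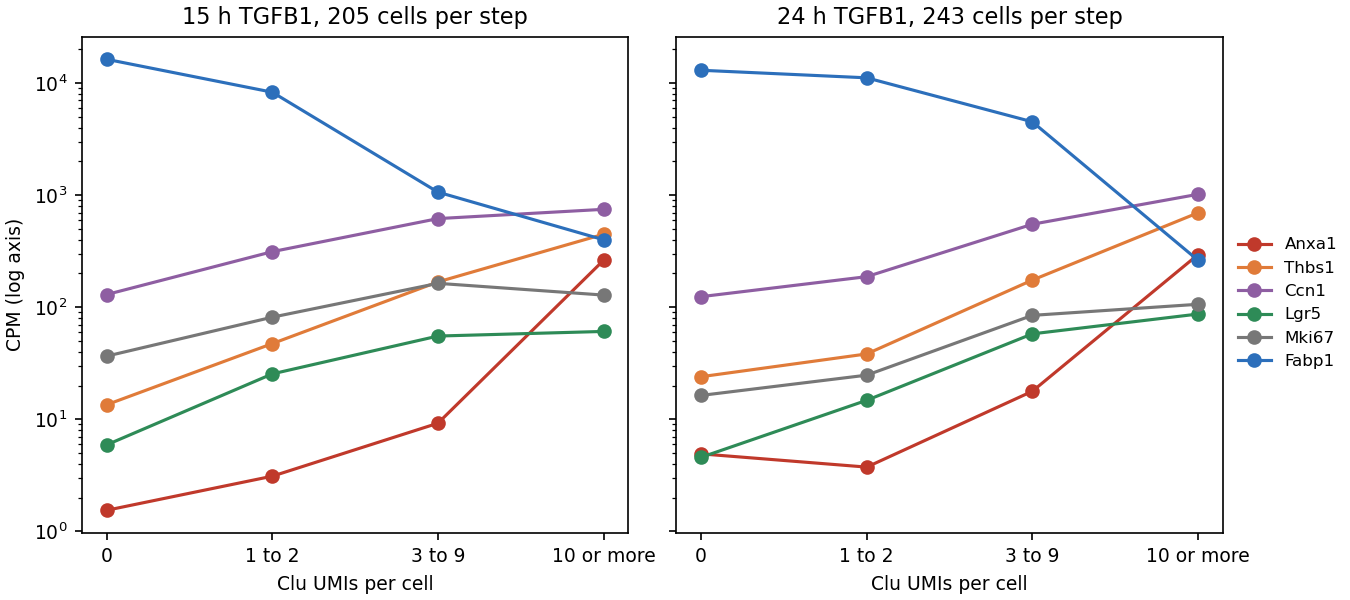
Summed CPM (log axis) of 6 genes in cells with 0, 1 to 2, 3 to 9 and 10 or more Clu UMIs, at equal depth, in the 15 h library (left) and the 24 h library (right); each point is 1 sum of 205 or 243 cells. Anxa1 lies at 17.8 CPM or below up to 9 Clu UMIs and at 262 and 294 CPM in the last step.

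Anxa1 was detected in a minority of the Clu-high cells. An Anxa1 UMI was found in 18.2, 8.72, 17.1 and 30.9% of depth-matched Clu-high cells at 0, 6, 15 and 24 h, against 0, 0, 2.26 and 5.73% of depth-matched Clu-zero cells, and an Lgr5 UMI in 45.5, 41.3, 37.3 and 39.1% of these Clu-high cells. In all Clu-high cells, without matching, those with Anxa1 had a higher median of Clu UMIs than those without, 10.5 against 4, 8.5 against 4, 18 against 6 and 28 against 9. The cells with Anxa1 were also deeper, so these medians are a description at unequal depth and were not tested. Ly6d was found in 33.3, 35.0, 31.1 and 26.3% of the Clu-high cells with Anxa1 and in 7.41, 2.51, 4.07 and 3.97% of those without. Lgr5 was found in 33.3, 15.0, 21.0 and 38.1% of the cells with Anxa1 and in 48.1, 43.7, 39.4 and 40.4% of those without, although the cells with Anxa1 were the deeper ones (medians of 13830, 11372, 11661 and 18067 UMIs against 9857, 8011, 9487 and 13399). After thinning to 2000 UMIs, Anxa1 was found in 9.09, 4.11, 9.09 and 14.3% of Clu-high cells and in 0.109, 0.346, 0.45 and 1.98% of Clu-zero cells.

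The levels within Clu-high cells differed between the libraries. In all Clu-high cells of a library, without matching, Reg3b, an antimicrobial lectin, stood at 12.5, 88.4, 244 and 678 CPM at 0, 6, 15 and 24 h, and in Clu-zero cells at 574, 1302, 4549 and 4349 CPM, so both classes had more of it at the later times. Ctrb1, a chymotrypsinogen normally made by the pancreas, had 2.49, 23.8, 150 and 331 CPM in Clu-high cells and 82.4, 193, 757 and 1608 CPM in Clu-zero cells. Cym, the milk-clotting protease chymosin, had 0, 4.94, 34.5 and 170 CPM in Clu-high cells, at least 22.7-fold higher at 24 h than the 0 h floor of 7.48 CPM (3 UMIs over the class), and 0.119, 3.77, 15.1 and 34.2 CPM in Clu-zero cells. Timp3, an inhibitor of matrix proteases, had 4.99, 87.1, 73.4 and 109 CPM in Clu-high cells and 5.32, 15.4, 8.36 and 8.22 CPM in Clu-zero cells. Mki67 had 244, 214, 150 and 99.8 CPM and Lgr5 73.7, 75, 62.4 and 63.2 CPM, so the proliferation marker was lower and the stem cell marker similar at the later times. The largest differences the other way rested on single cells of the 33 at 0 h: 1 cell held 57 of the 60 Cyp2c29 UMIs, 90 of the 117 Anpep UMIs, 56 of the 80 Agr2 UMIs and 20 of the 27 Pnliprp2 UMIs. Apart from these, Pdzk1ip1, a membrane-associated protein, stood at 115 CPM at 0 h and at 8.08, 15.2 and 12.2 CPM afterwards.

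The class difference itself was fitted against hours of TGFB1, as the slope of the log2 difference per 24 h. This slope passed in 530 of 11158 genes (4.75%), 446 upward (4%) and 84 downward (0.753%), and in 45 of 10319 (0.436%) when enterocyte-matched, 12 upward (0.116%) and 33 downward (0.32%). Adra2a, an adrenergic receptor, had the steepest upward slope, with 17.4, 42.1, 30.3 and 26.0 CPM in Clu-high and 10.2, 19.0, 4.11 and 0.883 CPM in Clu-zero cells (slope 4.44 ± 0.68, edgeR adjusted p = 0.000772), and its slope was 1.62 when enterocyte-matched (edgeR adjusted p = 0.597). For Mcm3 and Mcm5, helicase subunits of DNA replication, the values at 15 and 24 h were low in the Clu-zero cells and less so in the Clu-high cells. Mcm5 had 87.2, 105, 73.4 and 69.5 CPM against 50.8, 58.0, 8.38 and 5.47, a slope of 3.65 ± 0.49, and 1.95 when enterocyte-matched (edgeR adjusted p = 0.0164). Olfm4 had 2655, 4630, 4595 and 3460 CPM against 1204, 1472, 667 and 199 (slope 2.99 ± 0.22), and Mki67 244, 218, 148 and 94.4 CPM against 142, 102, 41.1 and 18.4 (slope 1.62 ± 0.26). Neither slope passed when enterocyte-matched, with 1.16 for Olfm4 and -0.20 for Mki67 (edgeR adjusted p = 0.155 and 0.947). Ada, adenosine deaminase, had the steepest downward slope (-4.79 ± 0.33), with 192, 114, 179 and 62.3 CPM against 7.62, 29.7, 125 and 154, and 72 of its 77 UMIs at 0 h were in 1 cell; enterocyte-matched, its slope was -3.85 (edgeR adjusted p = 0.88). Muc3, a membrane mucin, had 54.8, 47.1, 28.4 and 22.8 CPM against 66.1, 91.3, 106 and 144, a slope of -2.39 ± 0.30, and Krt20 a slope of -1.97 ± 0.27, and both passed when enterocyte-matched (-3.17 and -1.93). Of the 10 genes named by the slope rule, only Mcm5 and Muc3 passed in both forms. The Anxa1 slope was -2.78 ± 1.01 and missed the threshold (edgeR adjusted p = 0.133). The slope rests on 1 library per time and on 33 Clu-high cells at 0 h, and another random draw of the matched Clu-zero cells gave 817 calls. Upward slopes were 84.2% of the 530 calls, and 70.6% of 422 calls with RLE in place of TMM scaling. Without the 0, 6 and 24 h libraries in turn the calls were 337, 341 and 243.

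The same 2 classes were compared in crypt cells after irradiation, with depth matched only. In the 2 irradiated crypt libraries, 47 of 9839 genes (0.478%) passed between Clu-high and Clu-zero cells, 29 higher (0.295%) and 18 lower (0.183%). This fit used 2 libraries with 61 and 66 matched cells per class, against 4 libraries in organoids. Its count of genes is therefore not comparable with the organoid count as a size of the class difference. Anxa1 had 63.4 and 97.2 CPM in crypt Clu-high cells against 16.2 and 17.5 in crypt Clu-zero cells, a log2 difference of 2.23 ± 0.24, and Ly6a 567 and 698 CPM against 190 and 171, a difference of 1.80 ± 0.15 (edgeR adjusted p = 0.0271 and 0.0123). Also higher were Ltf, the iron-binding protein lactoferrin (3.91), Sprr1a, a cornified envelope protein (3.85), F3, tissue factor (2.39), Il1rn (1.68), S100a6 (1.26) and Krt18 (0.98). Reg3b was lower (-1.63), as were Fabp1 (-3.69) and Rbp2, a retinol carrier of enterocytes (-3.48). Crypt Clu-zero cells had 177 and 508 CPM of Fabp1, against 7282 to 15004 CPM in Clu-zero cells of the organoids.

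The class difference differed between organoids and crypts for 2456 of 9878 genes (24.9%), 1111 with a more positive difference in organoids (11.2%) and 1345 in crypts (13.6%), and for 123 of 9928 (1.24%) when the organoid classes were enterocyte-matched. In that second form the crypt classes were still matched on depth only, so the organoid and crypt sides were not matched alike. The coefficient of Fabp1 was -0.61 in the first form and 3.03 in the second, and it passed in neither. Anxa1 had the larger difference in organoids, by 2.61 ± 0.46 on the log2 scale (edgeR adjusted p = 0.00317) and by 2.09 when enterocyte-matched (0.0132). Anxa8 had 41.6 and 74.1 CPM in crypt Clu-high against 25.4 and 32.2 CPM in crypt Clu-zero cells. Its difference in organoids was larger by 3.15 ± 0.36, and by 3.26 when enterocyte-matched. For both annexins the Clu-zero values were lower in organoids (Anxa1 0 to 5.47 CPM, against 16.2 and 17.5 in crypts, and Anxa8 0 to 2.29 CPM). The Clu-high values were not above the crypt ones throughout. They were 33.8 to 146 CPM for Anxa1, against 63.4 and 97.2 in crypts, and 4.99 to 43.1 CPM for Anxa8. Ly6a also differed more in organoids on the log2 scale (3.14 ± 0.52, and 2.29 with an edgeR adjusted p of 0.0778 when enterocyte-matched). Its level was 567 and 698 CPM in crypt Clu-high cells and 2.44 to 87.2 CPM in organoid ones. Organoid Clu-zero cells had 0, 0, 0.305 and 0.177 CPM, so the organoid difference is a ratio to values at or near 0. In the organoid classes alone Ly6a was under the filter on low counts. Reg4, a lectin of secretory cells, had 6.34 and 7.48 CPM in crypt Clu-high and 138 and 109 CPM in crypt Clu-zero cells, against 2.49, 5.94, 11.5 and 109 CPM and 7.62, 4.17, 19.3 and 130 CPM in the organoids. In the 24 h library 1 of all 891 Clu-high cells held 515 of their 728.5 Reg4 UMIs. The genes with the largest difference the other way (Ces1f, Gsta2, Aldh1a1, Ugt2b36 and Adh1) are enzymes of enterocytes or of detoxification, and none of them passed when the organoid classes were enterocyte-matched. Aldh1a1, a retinaldehyde dehydrogenase, had 26.1 and 67.3 CPM against 23.3 and 69.2 CPM in crypts, and 12.5 to 63.4 CPM against 259 to 616 CPM in organoids. Differences more positive in organoids were 45.2% of the 2456 calls, and 70.9% of 2601 calls without TMM scaling. Leaving out the first irradiated crypt library reduced the 2456 calls to 352, leaving out the second to 901, and leaving out the 15 h and 24 h organoid libraries to 1058 and 1563.

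The genes of Clu-high cells were then read in the bulk organoid libraries, which the choice of cells did not use. Clu itself had 48.5, 43.2 and 51.3 FPKM (fragments scaled to transcript length and library size) with vehicle and 1806, 1765 and 1732 FPKM with TGFB1 in non-irradiated organoids at D7. In irradiated organoids it had 186, 179 and 208 FPKM against 3839, 3912 and 4154 FPKM at D7, and 72.1, 78.2 and 85.4 FPKM against 4352, 3563 and 3900 FPKM at D11. The groups did not overlap in any condition. In bulk RNA, fewer cells of a type and less RNA per cell cannot be told apart.

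Of the 145 genes at least 2-fold higher in enterocyte-matched Clu-high cells, 95 of 141 tested in bulk were called at least 2-fold higher with TGFB1 in non-irradiated organoids at D7 (67.4%, against 5.52% of all genes tested there; limma on log2(FPKM + 1)). In irradiated organoids the counts were 115 of 143 at D7 (80.4%, against 7.79%) and 81 of 143 at D11 (56.6%, against 5.67%). Anxa1 had 20.2, 19.2 and 19.9 FPKM with vehicle and 346, 352 and 326 FPKM with TGFB1 in non-irradiated D7 organoids, and its log2 differences in the 3 conditions were 4.04, 3.75 and 4.59. Lama3 had 0.580, 0.495 and 0.590 FPKM against 52.6, 63.3 and 57.8 FPKM, with log2 differences of 5.24, 4.86 and 2.80. Msln differed more at D11 (log2 3.70) than at D7 (0.70 and 1.43 without and with irradiation), and Ly6d less (0.63 against 2.21 and 4.17); these differences between conditions were not tested.

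The 1335 genes higher with depth matched alone included the stem cell and cell cycle genes. With TGFB1, 17.5, 19.3 and 17.4% of those tested were higher by 2-fold or more, and 3.51% were lower by that much in non-irradiated organoids at D7, 23.7% in irradiated ones at D7 and 4.41% at D11 (against 2.92, 5.39 and 8.04% of all genes). Lgr5 had 21.9, 21.8 and 21.6 FPKM with vehicle and 8.93, 9.78 and 7.84 FPKM with TGFB1 in irradiated D7 organoids, and Mki67 56.4, 55.4 and 58.1 against 11.3, 12.9 and 9.90 FPKM, with log2 differences of -1.21 and -2.23. Both genes were higher in Clu-high than in Clu-zero cells of the same depth, and lower with TGFB1 in the bulk RNA of these irradiated D7 organoids. At D11 Mki67 had a mean of 58.6 FPKM with vehicle and 57.6 FPKM with TGFB1 (log2 -0.019, limma adjusted p = 0.903). Lgr5 was still lower with TGFB1 at D11, with 31.2, 32.2 and 24.2 FPKM against 68.5, 56.5 and 52.1 FPKM with vehicle. Ctrb1, lower in Clu-high cells, went the other way at D7, with 73.1, 63.7 and 74.6 FPKM with vehicle against 2728, 2514 and 2593 FPKM with TGFB1 in irradiated organoids (log2 5.20). The log2 difference was 7.01 in non-irradiated ones and -0.89 at D11. Of the 1213 genes lower in Clu-high cells, 19.96, 6.22 and 32.0% of those tested were at least 2-fold lower with TGFB1 in the 3 conditions.

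**Figure D5:**
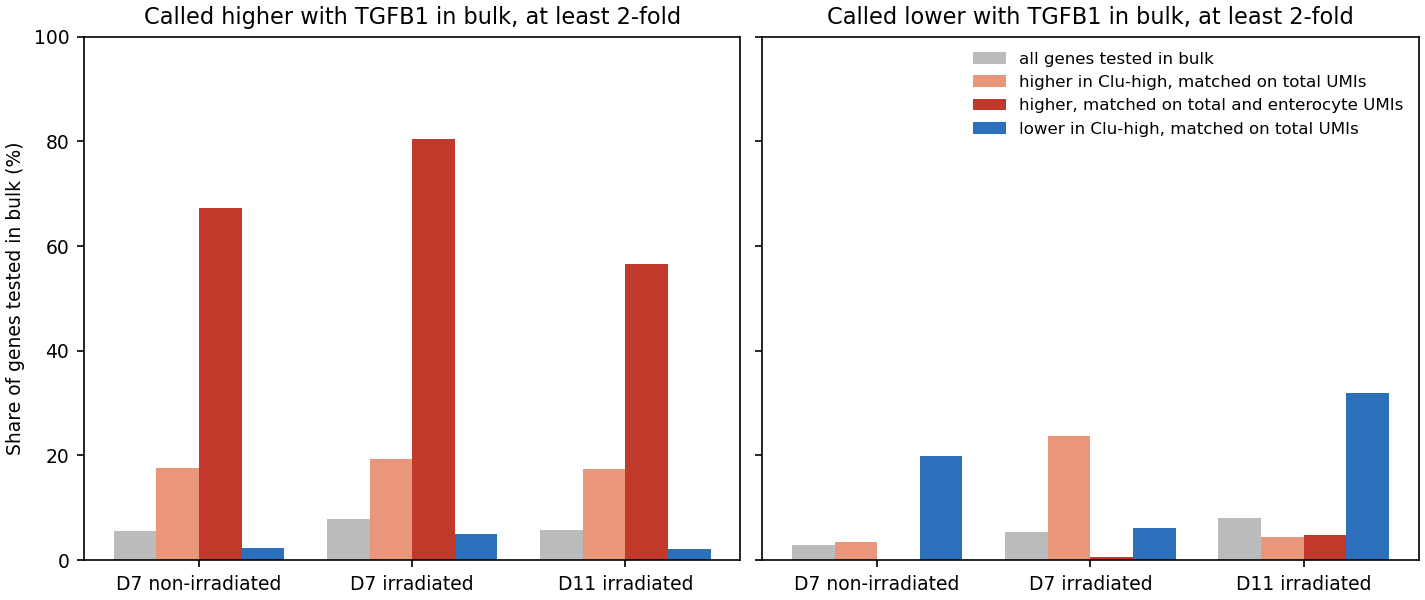
Percentage of genes tested in bulk that were called at least 2-fold higher (left) or lower (right) with TGFB1 in each of 3 bulk conditions, for all genes tested (grey), genes at least 2-fold higher in Clu-high cells with depth matched (light red) or with enterocyte UMIs also matched (red), and genes at least 2-fold lower (blue). The red bars reach 67.4, 80.4 and 56.6%, against grey bars of 5.52, 7.79 and 5.67%.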

How the data were processed

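Single cells were measured with PIPseq in 4 organoid and 3 crypt libraries, and bulk RNA in 18 organoid libraries. The authors deposited estimated counts of UMIs per gene and cell (54307 gene rows), some of them not whole; STARsolo and STAR 2.7.10a stand in the submitters' processing notes. The bulk FPKM values were deposited by the authors in 1 table per condition, and TopHat2 2.1.0 and Cuffnorm 2.2.1 stand in the submitters' processing notes. The notes name the builds mm9, mm39 and GRCm39 without saying which file used which. The ATAC-seq libraries are not analysed here. 0 columns were left unmapped.

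Cells with at least 500 UMIs and at most 20% mitochondrial UMIs were kept. Clu-high and Clu-zero cells of a library were paired in bins of 0.25 log2 units of UMIs other than Clu (seeded draw), or of 0.5 log2 units together with 1 log2 unit of enterocyte UMIs. The sums per class were rounded and tested with edgeR 4.0.16 in R 4.3.3 (filterByExpr, TMM, quasi-likelihood, library as block, two-sided, Benjamini-Hochberg over all genes tested, threshold 0.05). With 8 sums and 3 residual degrees of freedom, the spread of a single gene over these 4 libraries is poorly known by itself. edgeR draws it toward a trend over all genes tested, so the p-values and SE rest in part on other genes. Each SE is the log2 value divided by the square root of its F statistic. No 2 of the libraries share a treatment time, and nothing states that they came from separate animals or cultures. The slope fit had 2 residual degrees of freedom. The non-irradiated crypt library had under 20 Clu-high cells and stayed out of the tests. For bulk, limma 3.58.1 (trend, robust) was run in each table by itself on log2 of FPKM plus a pseudocount of 1, for genes averaging 1 FPKM or more. FPKM differences on this scale understate the change of low genes, and the depth of the bulk libraries is unknown. Of 11158 genes tested in the cells, 10339 were matched to bulk symbols, 560 of them by an older symbol. Bulk replicate numbers do not pair the libraries. Scripts were tested on simulated data. Exact 95% intervals are Clopper-Pearson for shares and Poisson for summed UMIs, and cover counting error only.

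The cells and the 30 gene lists were chosen with earlier results of these data known. Genes named by rule were the 15 largest differences in each direction among called genes with the same sign in 4 libraries and a mean of at least 20 CPM in the higher class (no mitochondrial, ribosomal or unnamed genes), the 5 largest for the slope and for organoid against crypt, the 8 largest ratios over time, and a fixed panel. Alternatives were DESeq2 1.42.0, RLE scaling, no filter, other thresholds, thinning, doublets or cycling cells left out, another draw, no matching and each library left out; enterocyte matching, Apoa4-rich cells left out and no TMM were added after the data were seen.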

Additional observations from a re-analysis of the deposited data

Results flagged for a closer look

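The difference between the Clu classes itself differed with hours of TGFB1 in 530 genes and between organoids and crypts in 2456 genes, both by edgeR's quasi-likelihood test of an interaction term. Among the genes named for the slope (log2 difference per 24 h), the upward ones were Adra2a (4.44), Mcm3 (3.70), Nox1 (3.65), Mcm5 (3.65) and Fignl1 (3.52). The downward ones were Ada (-4.79), Slc28a2 (-2.84), Pnliprp2 (-2.83), Muc3 (-2.39) and Fam3d (-2.27). With enterocyte matching, Mcm5 (1.95) and Muc3 (-3.17) passed and the other 8 did not. Nox1, an enzyme that makes superoxide, stood at 4.99, 8.69, 47.0 and 38.3 CPM in Clu-high cells at 0, 6, 15 and 24 h and at 10.2, 6.49, 14.6 and 4.41 CPM in Clu-zero cells.

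Among the genes named for organoid against crypt, the difference (Clu-high minus Clu-zero, log2) was more positive in organoids for Reg4 (3.44), Anxa8 (3.15, with organoid Clu-zero values of 0 to 2.29 CPM), Ly6a (3.14, with organoid Clu-zero values at or near 0), Lgals1 (3.07) and Pla2g5 (3.07). It was more positive in crypts for Ces1f (-4.54), Gsta2 (-4.21), Aldh1a1 (-4.07), Ugt2b36 (-4.05) and Adh1 (-4.02). With the organoid classes enterocyte-matched and the crypt classes matched on depth only, Reg4 (3.31) and Anxa8 (3.26) passed and the other 8 did not. Lgals1, the lectin galectin 1, stood at 35.2 and 54.4 CPM in crypt Clu-high and at 51.5 and 78.6 CPM in crypt Clu-zero cells, against 9.97, 24.7, 19.9 and 44.9 CPM and 5.08, 9.74, 2.29 and 3.18 CPM in organoids, and with organoid classes matched on enterocyte UMIs its difference between the systems was 1.07 (edgeR adjusted p = 0.111).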

How the results depend on the processing

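Counts of genes are given first. For Clu-high against Clu-zero cells (5904 genes), leaving out 1 library gave 3260 to 6651 genes, leaving out cells with at least 5 Apoa4 UMIs 1961, and enterocyte matching 958. The fit without the replicate block, that is without the library pairing, gave 3245 genes. For the slope over hours (530 genes), DESeq2 gave 115, another random draw 817, no depth matching 1117, enterocyte matching 45, and leaving out 1 library 243 to 496. For organoid against crypt (2456 genes), enterocyte matching of the organoid classes alone gave 123 and leaving out 1 library 352 to 2905. In bulk, pairing by replicate number (replicate block) gave 7701, 8417 and 7351 genes against 7732, 8495 and 7335 without it for non-irradiated D7, irradiated D7 and irradiated D11, and leaving out 1 library gave 7218 to 7596, 8100 to 8265 and 6464 to 7591. Correlations of same-numbered bulk libraries ran from -0.0856 to 0.213, so the numbers are not read as pairs.

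The share of Clu-high cells at 0, 6, 15 and 24 h was 0.171, 1.17, 6.23 and 17.3% after thinning and 0.546, 2.615, 15.9 and 33.5% with at least 5 Clu UMIs, and 25.02 and 43.3% at 15 and 24 h with at most 10% mitochondrial UMIs. Lyz1 (0.07) changed sign with another draw (-0.044), at least 5 Clu UMIs (-0.032), no depth matching (-0.50), thinning (-0.45), at most 10% mitochondrial UMIs (-0.0048), Apoa4 cells left out (-0.13) and enterocyte matching (-0.10), and ran from -0.088 to 0.17 with 1 library left out. Chgb (-0.29) changed sign with another draw (0.32), doublets left out (0.45) and cycling cells left out (0.49), and Smad7 (-0.15) with Apoa4 cells left out (0.058), enterocyte matching (0.057) and no TMM (0.089). None of these 3 was called with depth matched, but Lyz1 passed as lower without depth matching and after thinning (edgeR adjusted p = 0.00688 and 0.0201), and Chgb as higher with cycling cells left out (0.0188). With enterocyte matching, Mki67 was -0.27, Krt20 1.02 and Cdkn1a 0.31, each of the other sign and not called. Apart from the alternatives named, the causes were not tested. The 0 h class of 33 cells limits every value at that time.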
